A study of Homo sapiens with 12 samples.

Results

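GAS5, ZFAS1 and the small nucleolar RNA host genes SNHG1, SNHG5, SNHG6, SNHG8, SNHG12, SNHG15 and SNHG16 are non-coding genes that carry small nucleolar RNAs (snoRNAs) in their transcripts. They were chosen by gene symbol, and all 9 were present among the 54628 genes of the count table. All 9 also passed the filter on low counts that left 15492 genes for testing. RNA-seq had been carried out on 12 libraries of HUDEP-2, an immortalised human erythroid precursor line that expands under doxycycline with stem cell factor (SCF, the ligand of the receptor tyrosine kinase Kit), erythropoietin and dexamethasone. All cells carried dCas9-KRAB, a nuclease-dead Cas9 fused to a repressor domain, delivered by lentivirus with either a control guide (sgControl) or a guide to an element upstream of EGR1 (sgEGR1), and were GFP-sorted populations rather than stated single clones. All cells were deprived of growth factors for 5 h and then given PBS or 50 ng/mL SCF for 1 h, which gave the groups sgControl PBS, sgControl SCF, sgEGR1 PBS and sgEGR1 SCF with 3 libraries each. For the starvation medium the study's methods list antibiotics and albumin as supplements, and not dexamethasone or doxycycline. The comparisons ask what short Kit activation did to these host genes, and whether the EGR1 guide altered their level or their response.

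A snoRNA host gene is transcribed and spliced, and most snoRNAs are cut out of the removed introns while the joined exons leave as a spliced host RNA. snoRNAs of the C/D class guide ribose methylation and those of the H/ACA class guide pseudouridylation of ribosomal and other RNAs. Many host transcripts begin with a terminal oligopyrimidine (TOP) tract, a C followed by pyrimidines that couples translation to mTORC1. Host RNAs carry only short reading frames, and translation of these exposes them to nonsense-mediated decay, so that a spliced host RNA can accumulate when growth and translation slow. GAS5 was named for its accumulation in growth-arrested cells, and its RNA can bind the glucocorticoid receptor as a decoy for DNA. In erythroid precursors, Kit signalling supports survival and expansion.

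The starts of the host genes are shown because the TOP tract is the sequence feature by which this class is best known. RefSeq (GRCh38.p14) start windows were held for 7 of the 9 genes; SNHG6 and SNHG15 had no entry in the table. Each line gives 60 bases, 5′ to 3′ on the gene's strand, beginning 30 bases before the annotated start, and capitals mark a C followed by at least 5 pyrimidines within 15 bases of that start.
SNHG12: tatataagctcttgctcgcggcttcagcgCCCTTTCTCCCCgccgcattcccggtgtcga
SNHG8: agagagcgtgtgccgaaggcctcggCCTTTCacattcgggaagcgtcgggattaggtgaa
SNHG16: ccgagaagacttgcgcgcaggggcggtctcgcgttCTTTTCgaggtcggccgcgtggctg
SNHG1: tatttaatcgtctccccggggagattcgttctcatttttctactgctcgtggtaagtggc
SNHG5: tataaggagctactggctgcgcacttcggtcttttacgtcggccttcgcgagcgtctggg
ZFAS1: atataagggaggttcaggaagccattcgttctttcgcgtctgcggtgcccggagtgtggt
GAS5: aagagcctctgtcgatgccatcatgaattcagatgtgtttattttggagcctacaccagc
SNHG12 held the longest tract, of 12 bases, and SNHG8 and SNHG16 held tracts of 6 bases. The tract, as defined here, was thus found in 3 of 7 host windows, and in 24.3% of all 35116 RefSeq windows. Shorter tracts were not counted, such as ctttt at the annotated start of SNHG5 and ctttc at that of ZFAS1. The count therefore does not show that the other hosts lack a TOP start. The GAS5 window, which is among the 7, lies outside the GAS5 gene of the GENCODE v44 annotation, so it shows the start of another annotated transcript.

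Motifs of factors that act early after Kit activation were searched on both strands of the 300-base promoter windows, which run from 250 bases before to 50 bases after the start. SNHG6 and SNHG15 had no window, so the search leaves out SNHG15, the host with the largest SCF response. The GAS5 window again lies outside the annotated GAS5 gene. GCGTGGG, the core of the EGR1 site, was found in 1 of 7 host promoters, that of SNHG12, and in 6.98% of all promoters. TGANTCA, the AP-1 site, was in 0 of 7 against 7.71% of all promoters, and CACGTG, the E-box bound by MYC, was in 0 of 7 against 7.26%. The SNHG12 promoter (chr1:28581824-28582123, GRCh38.p14, minus strand) is shown with GCGTGGG in capitals, which begins 244 bases before the start.
SNHG12 promoter: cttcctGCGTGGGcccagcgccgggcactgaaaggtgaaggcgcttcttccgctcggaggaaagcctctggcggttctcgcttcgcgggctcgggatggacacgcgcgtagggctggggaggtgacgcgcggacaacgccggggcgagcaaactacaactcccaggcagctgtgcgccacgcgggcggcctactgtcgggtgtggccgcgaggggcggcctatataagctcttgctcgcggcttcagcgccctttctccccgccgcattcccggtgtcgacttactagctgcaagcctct
A match describes letters in the window and is no evidence of binding, and its absence says nothing about the factor.

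SNHG15 and its snoRNA take up the largest response described here, so the snoRNA is shown as well. SNORA9, an H/ACA snoRNA, lies at chr7:44985378-44985510 (hg38, minus strand), and its 133 bases are given with the ACA box in capitals, 3 bases from the 3′ end.
SNORA9: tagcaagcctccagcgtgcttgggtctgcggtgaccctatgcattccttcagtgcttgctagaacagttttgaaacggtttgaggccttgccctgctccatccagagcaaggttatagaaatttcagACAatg
All 133 bases fall within an exon of the canonical SNHG15 transcript in GENCODE v44, so reads of the small RNA and of its host can share this stretch.

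The library totals ranged from 23.5 to 32.04 megacounts, and genes of the mitochondrial genome took 8.23% to 10.7% of them. EGR1, whose regulatory element was targeted, stood at 10.9, 5.99 and 7.45 CPM (counts scaled to library size) in sgControl PBS and at 2.04, 1.12 and 0.983 CPM in sgEGR1 PBS. It reached 208, 240 and 171 CPM in sgControl SCF but 40.4, 57.4 and 204 CPM in sgEGR1 SCF. The library labelled sgEGR1 SCF replicate 3 therefore went against its label. Main calls that rest on it are given with and without it, as are the guide comparison after SCF and the interaction. Some uncalled values are given only with it. Replicate 1 of every group also stood apart, with scores of -35.3 to -21.7 on the first principal component against 6.85 to 23.7 for the other libraries. All 12 erythroid markers were tested, with summed levels of 7705 to 9025 CPM, while of 8 markers of other blood cells PTPRC and ITGA2B alone passed the filter and CD3E, MPO, ELANE and PF4 were at 0 in every library. In bulk RNA, a change in the share of cells and a change in RNA per cell cannot be told apart.

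The 9 genes lay on 8 chromosomes of hg38 and were all annotated as long non-coding RNA genes. GAS5 (chromosome 1, 173858559 to 173868882, minus strand) and SNHG12 (chromosome 1, 28578538 to 28583132, minus) shared a chromosome. SNHG1 lay on chromosome 11 (62851978 to 62855953, minus), SNHG5 on chromosome 6 (85650491 to 85678932, minus) and SNHG6 on chromosome 8 (66920561 to 66926398, minus). SNHG8 was on chromosome 4 (118278703 to 118285316, plus), SNHG15 on chromosome 7 (44983019 to 44986961, minus), SNHG16 on chromosome 17 (76557727 to 76670985, plus) and ZFAS1 on chromosome 20 (49278178 to 49299600, plus). SNHG1 and SNHG15 shared exon bases with no gene other than snoRNAs. GAS5 overlapped exons of GAS5-AS1, SNHG6 of MCMDC2, SNHG8 of PRSS12, SNHG12 of TRNAU1AP over 8 bases, and ZFAS1 of ZNFX1, all on the opposite strand. On the same strand, SNHG5 shared 943 exon bases with a protein-coding gene, 799 of them in its canonical transcript, and 715 with a pseudogene. The study's methods describe strand-specific libraries, but the sources used here do not give the strand setting of the counting. Reads of such partners may be included in these genes' counts, and for the same-strand partners of SNHG5 no strand setting would separate them.

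The counts behind each gene differed widely, from 66 to 270 counts per library for SNHG15 and 259 to 345 for SNHG12 to 1947 to 2814 for GAS5 and 2662 to 4320 for SNHG5, with 671 to 2457 for the other 5. Per kilobase of the canonical transcript, the mean level over the 12 libraries was highest for SNHG16, at 116 CPM per kb (range 102 to 124), followed by GAS5 at 109 (95.4 to 128) and SNHG5 at 90.9 (80.0 to 103). The ranges of these neighbours in the order overlapped, whereas SNHG1 at 56.8 and SNHG6 at 36.5 CPM per kb stood below them. ZFAS1 was at 10.7 CPM per kb, SNHG12 at 5.65 (4.62 to 7.40), SNHG8 at 5.01 (4.29 to 6.05) and SNHG15 at 1.74 (0.807 to 2.83). SNHG12 and SNHG8 could not be told apart by their ranges, and SNHG15 was the lowest of the 9. This order depended on the length used: over the union of all annotated exons SNHG6 was highest, at 26.3 CPM per kb, SNHG16 fell to 9.99, and SNHG15 stayed lowest at 1.33.

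**Figure D1:**
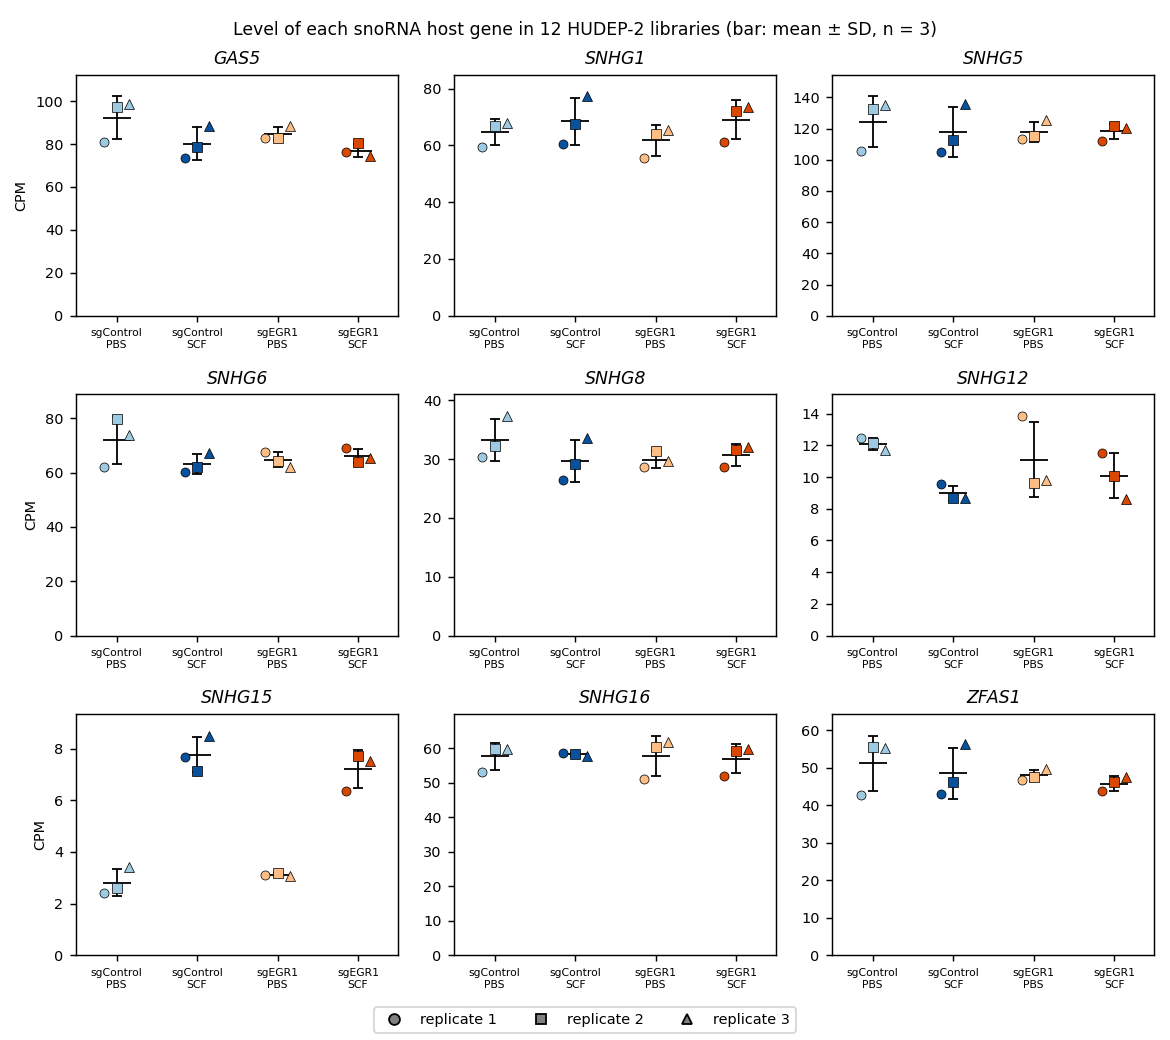
Level of each of the 9 host genes in CPM (vertical axis, from 0) in the 4 groups, with circles, squares and triangles for replicates 1, 2 and 3 and bars for the mean ± SD (n = 3). SNHG15 separates by treatment, with 2.42 to 3.41 CPM after PBS and 6.35 to 8.49 CPM after SCF, while the groups of most other hosts overlap.

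SNHG15 was the host gene called after SCF in the main test. It stood at 2.42, 2.60 and 3.41 CPM in sgControl PBS and at 7.66, 7.13 and 8.49 CPM in sgControl SCF. In the sgEGR1 groups it was at 3.11, 3.2 and 3.07 CPM after PBS and at 6.35, 7.73 and 7.53 CPM after SCF. Every SCF library was above every PBS library, whichever guide it carried. In sgControl cells the mean was 2.81 ± 0.53 CPM after PBS and 7.76 ± 0.68 CPM after SCF (SD, n = 3), and the fitted rise was 2.76-fold or 1.46 on the log2 scale (SE 0.15, 95% interval 1.14 to 1.78), with an adjusted p of 0.000267 in edgeR's quasi-likelihood test. In sgEGR1 cells the means were 3.13 ± 0.069 and 7.20 ± 0.75 CPM, and the fitted rise was 2.30-fold or 1.20 on the log2 scale (SE 0.15, 95% interval 0.88 to 1.52; edgeR adjusted p = 0.000962). SNHG15 was thus the 1 of 9 hosts called in sgControl cells, where 2.89% of all genes were called, and the 1 of 9 called in sgEGR1 cells, where 2.59% were. Over both guide groups its log2 fold change averaged 1.33 (SE 0.10, edgeR adjusted p = 1.3e-05), and it was again the 1 of 9 called, where 9.03% of all genes were. At an unadjusted p under 0.05 in edgeR, 4 of 9 hosts passed in sgControl cells, where 14.3% of all genes did. Besides SNHG15 these were SNHG12, GAS5 and SNHG6, each with a negative log2 fold change. In sgEGR1 cells 1 of 9 passed, SNHG15, where 15% of all genes did.

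The rise of SNHG15 was also present without the libraries that stood apart. Leaving out the sgEGR1 SCF library numbered 3, it was 1.17 in sgEGR1 cells on the log2 scale (edgeR adjusted p = 0.006). The average over both guide groups was then 1.32 (edgeR adjusted p = 7.2e-05). Within replicates 2 and 3 alone it was 1.38 in sgControl cells and 1.28 in sgEGR1 cells, with edgeR adjusted p of 0.00194 and 0.00262. With a term for replicate 1, its edgeR adjusted p was 2.09e-05 in sgControl and 9.56e-05 in sgEGR1 cells, where 8.32% and 8.56% of all genes were called. SNHG15 stayed called under all 20 alternative settings in both guide groups, with log2 fold changes of 1.37 to 1.63 in sgControl and 1.15 to 1.29 in sgEGR1 cells. The response differed between the guides by -0.26 on the log2 scale (sgEGR1 minus sgControl, 95% interval -0.71 to 0.19), which did not pass the test of the interaction (edgeR, unadjusted p = 0.226).

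**Figure D2:**
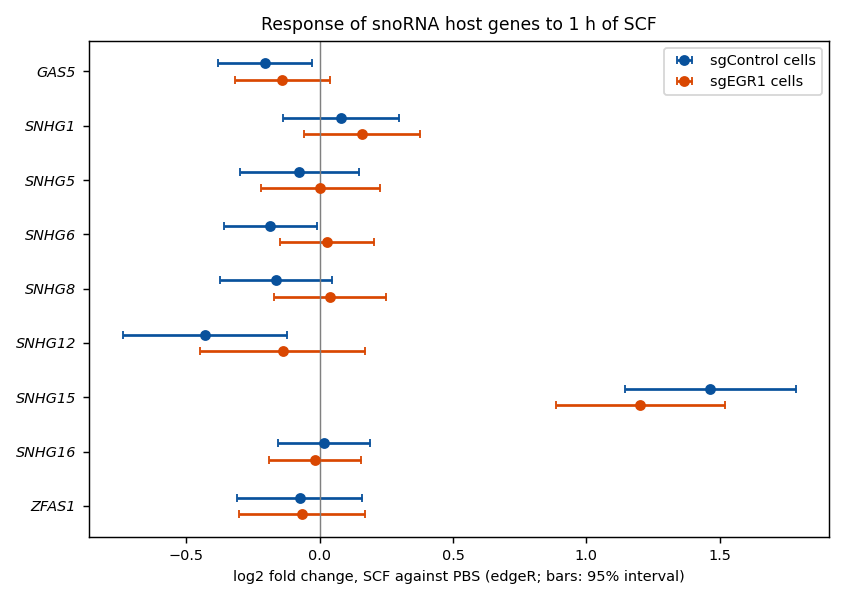
Log2 fold change of each host gene after SCF against PBS (horizontal axis, edgeR) in sgControl (blue) and sgEGR1 cells (orange), with bars for the 95% interval. SNHG15 lies at 1.46 and 1.20 with intervals far above 0, and the other 8 genes lie between -0.43 and 0.16.

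GAS5, the growth-arrest transcript, was slightly lower after SCF without passing the test in either guide group. Its levels were 80.9, 97.3 and 98.7 CPM in sgControl PBS and 73.3, 78.4 and 88.4 CPM in sgControl SCF. They were 82.9, 83.0 and 88.2 CPM in sgEGR1 PBS and 76.1, 80.3 and 74.3 CPM in sgEGR1 SCF. The sgControl groups overlapped, because replicate 1 after PBS was below replicate 3 after SCF, whereas the sgEGR1 groups did not, a separation that 21.2% of all genes showed in either direction. The log2 fold change was -0.20 in sgControl (SE 0.08, edgeR adjusted p = 0.261) and -0.14 in sgEGR1 cells (SE 0.08, edgeR adjusted p = 0.473), and the average over both was -0.17 (95% interval -0.30 to -0.05, edgeR adjusted p = 0.0902). The average passed the threshold when a term for replicate 1 was added (-0.17, edgeR adjusted p = 0.0138), a setting that called 18.5% of all genes, and in replicates 2 and 3 alone (-0.19, adjusted p = 0.026), and over all 20 alternatives its adjusted p ranged from 0.0138 to 0.2. Leaving out the sgEGR1 SCF library numbered 3, the average was -0.16 (adjusted p = 0.198).

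SNHG12, host of H/ACA snoRNAs and of SNORD99, had the lowest log2 fold change after SCF of the 9 in sgControl cells. It was at 12.5, 12.1 and 11.7 CPM after PBS and at 9.54, 8.70 and 8.71 CPM after SCF, and these groups did not overlap, as was so for 19.6% of all genes in either direction. The log2 fold change of -0.43 (SE 0.14, 95% interval -0.74 to -0.12) did not pass the test (edgeR adjusted p = 0.154). It passed with a term for replicate 1 (-0.43, edgeR adjusted p = 0.0173) and in replicates 2 and 3 alone (-0.45, adjusted p = 0.0485), and the adjusted p ranged from 0.0173 to 0.346 over the 20 alternatives. In sgEGR1 cells SNHG12 stood at 13.8, 9.65 and 9.84 CPM after PBS and at 11.5, 10.1 and 8.65 CPM after SCF. Replicate 1 was the highest of both sgEGR1 groups, the groups overlapped, and the log2 fold change was -0.14 (SE 0.14, edgeR adjusted p = 0.737), or -0.04 without the library whose EGR1 level went against its label. The difference between the guide groups' responses, 0.29, had a 95% interval of -0.15 to 0.73 and was not called.

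Of the hosts of C/D snoRNAs, SNHG6 stood at 62.2, 79.6 and 73.9 CPM in sgControl PBS and at 60.2, 62.1 and 67.2 CPM in sgControl SCF. Only replicate 1 after PBS lay within the SCF range, and the log2 fold change was -0.19 (SE 0.08, edgeR adjusted p = 0.305). It passed in replicates 2 and 3 alone (-0.24, edgeR adjusted p = 0.0423) and without sgControl PBS replicate 1 (-0.28, adjusted p = 0.0481), over a range of 0.0423 to 0.708 across the 20 alternatives. In sgEGR1 cells SNHG6 was at 67.7, 64.4 and 62.2 CPM after PBS and at 68.9, 63.8 and 65.3 CPM after SCF, which gave a log2 fold change of 0.03 (SE 0.08).

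SNHG1, which hosts several C/D snoRNAs, was the other gene with a positive value in both guide groups. It was at 59.4, 66.9 and 67.9 CPM in sgControl PBS and 60.6, 67.5 and 77.2 CPM in sgControl SCF, which differed by 0.08 on the log2 scale (SE 0.10, edgeR adjusted p = 0.819). In sgEGR1 cells it was at 55.7, 64.0 and 65.6 CPM after PBS and 61.1, 72.2 and 73.6 CPM after SCF, which differed by 0.16 (SE 0.10, edgeR adjusted p = 0.519). The highest SCF library was above the highest PBS library in both guide groups, while the groups overlapped. The average of 0.12 had an edgeR adjusted p of 0.362, which became 0.0244 with a term for replicate 1 and ranged from 0.0185 to 0.604 over the 20 alternatives.

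The 4 remaining hosts gave small values on both sides of 0. SNHG5 was the most abundant in CPM, at 106 to 135 in sgControl PBS, 105 to 136 in sgControl SCF, 113 to 125 in sgEGR1 PBS and 112 to 122 in sgEGR1 SCF, with log2 fold changes of -0.08 and 0.0029 after SCF. ZFAS1 ranged from 42.8 to 56.3 CPM over all libraries, with log2 fold changes of -0.08 in sgControl and -0.07 in sgEGR1 cells. SNHG16, host of SNORD1 family snoRNAs, ranged from 51.0 to 61.7 CPM with log2 fold changes of 0.02 and -0.02. SNHG8, which hosts an H/ACA snoRNA, ranged from 26.4 to 37.3 CPM with log2 fold changes of -0.16 and 0.04. The 95% intervals of these 8 values spanned at most -0.37 to 0.25, so that a change of the size of SNHG15's lay outside every one of them. The median log2 fold change over all 9 hosts was -0.08 in sgControl cells, against -0.01 over all genes tested, and 0.0029 in sgEGR1 cells, against -0.00048.

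No host passed the test between the guides, and in edgeR neither did EGR1, the targeted gene, which was tested. A test that did not call the lower EGR1 level after PBS says little about smaller differences. In edgeR, 0 of 9 were called between sgEGR1 and sgControl after PBS, after SCF, or on average, where 0% of all genes were called in each, and 0 of 9 reached an unadjusted p under 0.05 in each, where 4.62%, 2.33% and 5.2% of all genes did. DESeq2 also called 0 in each comparison. After PBS the log2 differences ranged from -0.15 for SNHG8 to 0.15 for SNHG15, and after SCF from -0.11 for SNHG15 to 0.17 for SNHG12. GAS5 differed by -0.12 after PBS (95% interval -0.30 to 0.06) and by -0.06 after SCF (95% interval -0.24 to 0.12). The groups of all 9 genes overlapped in both comparisons, against non-overlap of 9.31% and 7.14% of all genes. These intervals do not show equal levels. Without the library that went against its label, 0 of 9 were called and 0 had an unadjusted p under 0.05 after SCF, where the values ranged from -0.14 for SNHG15 to 0.26 for SNHG12. None of the 9 was called in the test of the interaction between guide and SCF either, where 0% of all genes were called; 0 of 9 reached an unadjusted p under 0.05, as 1.98% of all genes did, and DESeq2 called 0. The interaction values ranged from -0.26 for SNHG15 to 0.29 for SNHG12, and without that library from -0.29 to 0.39, again with 0 called and 0 at an unadjusted p under 0.05.

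Replicate 1 moved with most of these genes. With a term for replicate 1 in edgeR, 6 of 9 hosts were lower in replicate 1 and 1 was higher, where 13.4% of all genes were called lower and 13.1% higher. SNHG1 was lower by -0.23 on the log2 scale (adjusted p = 0.000439), SNHG5 by -0.19, ZFAS1 by -0.19, SNHG8 by -0.17, SNHG16 by -0.15 and GAS5 by -0.13 (adjusted p = 0.0475). SNHG12 was higher by 0.25 (adjusted p = 0.0238), and SNHG6 (-0.05) and SNHG15 (-0.15) were not called. Among protein-coding snoRNA hosts 25 of 44 were lower in replicate 1 and 1 was higher. The size of the replicate 1 difference matched or exceeded that of the SCF difference for SNHG1, SNHG5, SNHG8, SNHG16 and ZFAS1, and what set replicate 1 apart was not tested. Other lists moved with replicate 1 too. Of 7 genes for the glucocorticoid receptor and its targets, 4 were higher in replicate 1 and 0 lower, among them DUSP1 by 0.85, PER1 by 0.59 and TSC22D3 by 0.31 on the log2 scale. Both tested markers of other blood cells were lower, ITGA2B by -0.93 and PTPRC by -0.38, while of 12 erythroid markers 2 were higher and 3 lower. Their part in the values of the host genes was not tested.

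Several of the hosts also varied together around their group means. Over the 12 libraries, with each group's mean removed, Pearson's r was 0.98 between SNHG5 and ZFAS1, 0.96 between GAS5 and SNHG5 and 0.93 between GAS5 and ZFAS1, a description over libraries among which replicate 1 stood apart. SNHG12 ran the other way, with r of -0.76 to SNHG1 and -0.85 to SNHG16. SNHG6 was mixed, with r of 0.04 to SNHG16 and 0.27 to SNHG1 but 0.71 to GAS5 and 0.74 to ZFAS1. No background over other gene pairs was computed. Without removing the group means, r between SNHG15 and GAS5 was -0.57 and between SNHG15 and SNHG12 -0.70, but with the means removed the first was 0.59 and the second -0.32, so the negative value of SNHG15 and GAS5 held between groups and not within them. Among 8709 genes with a mean of at least 10 CPM, the 5 whose log2 levels followed GAS5 most closely over the 12 libraries were HEMGN (r = 0.94), ALAD (r = 0.91), PRDX2 (r = 0.91), SAT1 (r = 0.91) and ARL6IP1 (r = 0.91). The mean of the 9 hosts was followed most closely by MRPL47 (r = 0.95), SUCLG1 (r = 0.95), NAA20 (r = 0.95), STMN1 (r = 0.95) and PPIH (r = 0.94). These libraries share groups and replicate numbers, so the coefficients describe 12 libraries and carry no test.

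SNORA9 was counted as a gene of its own in very few reads. It held 3, 4 and 4 counts in sgControl PBS, 18, 19 and 16 in sgControl SCF, 10, 3 and 13 in sgEGR1 PBS and 16, 18 and 17 in sgEGR1 SCF. All SCF libraries were above all PBS libraries, but the sgEGR1 PBS libraries spread from 3 to 13 counts. SNORA9 was not called in sgControl (edgeR adjusted p = 0.0517) or sgEGR1 cells (edgeR adjusted p = 0.451), and it was called in the average over both (edgeR adjusted p = 0.0202). Since its sequence lies inside an SNHG15 exon, this row is not independent of the host's rise. The snoRNAs listed for the 9 hosts had 33 rows in the table, of which 19 were tested, and 0 were called in either guide group by edgeR; 3 and 2 of them had an unadjusted p under 0.05, where 14.3% and 15% of all genes did. In the average response 2 rose, where 5.58% of all genes did, SNORA9 and SNORD29, an SNHG1 snoRNA whose log2 fold change was 0.66 (edgeR adjusted p = 0.0321). Both were named after their values were seen. Without the library that went against its label, SNORA9 (1.41, edgeR adjusted p = 0.0424) and SNORD29 (0.71, edgeR adjusted p = 0.0425) stayed called in the average. Summed over the 33 rows, the level was 13.8 to 16.4 CPM in the PBS libraries and 16.3 to 18.8 CPM in the SCF libraries. Mature snoRNAs, host RNA and unspliced host precursors cannot be told apart in these rows.

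**Figure D3:**
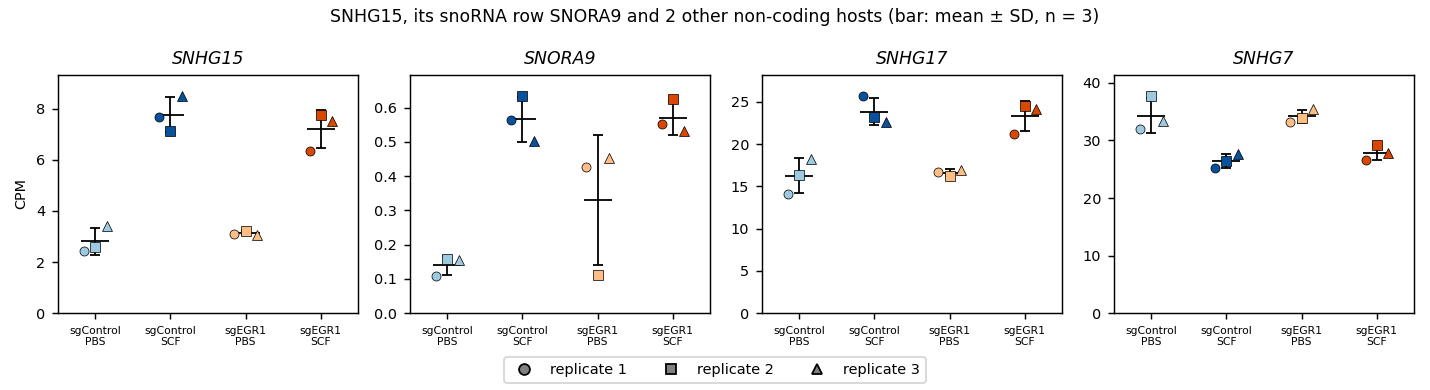
Level in CPM (vertical axes, from 0) of SNHG15, its snoRNA row SNORA9 and the hosts SNHG17 and SNHG7 in the 4 groups, with circles, squares and triangles for replicates 1, 2 and 3 and bars for the mean ± SD (n = 3). SNHG15 and SNHG17 are higher and SNHG7 is lower in every SCF library than in any PBS library, and SNORA9 in sgEGR1 PBS spreads between 0.11 and 0.45 CPM.

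Other non-coding snoRNA hosts gave a mixed picture. Of 20 such genes, 17 were tested; 1 rose and 1 fell in sgControl cells, and 2 rose and 0 fell in sgEGR1 cells. The share of genes called higher and lower was 2.12% and 0.775% in sgControl cells and 1.81% and 0.788% in sgEGR1 cells. SNHG17, an H/ACA snoRNA host, rose in sgControl from 16.3 ± 2.1 to 23.9 ± 1.6 CPM (log2 fold change 0.55, edgeR adjusted p = 0.00868) and from 16.6 ± 0.39 to 23.3 ± 1.8 CPM in sgEGR1 cells (0.49, edgeR adjusted p = 0.0183). SNHG7, also an H/ACA snoRNA host, fell in sgControl cells from 34.3 ± 3.0 to 26.5 ± 1.2 CPM (log2 fold change -0.37, edgeR adjusted p = 0.0146), and in sgEGR1 cells it went from 34.2 ± 1.1 to 27.9 ± 1.3 CPM (-0.29), just above the threshold (edgeR adjusted p = 0.050). DANCR rose in sgEGR1 cells (log2 fold change 0.22, edgeR adjusted p = 0.0269) and had a value of -0.02 in sgControl cells. Without the library that went against its label, a check added after the data were seen, neither was called in sgEGR1 cells (SNHG17 0.46, edgeR adjusted p = 0.0743; DANCR 0.19, edgeR adjusted p = 0.115), and SNHG17 was called in the average over both guides with and without it (0.52 and 0.51, edgeR adjusted p = 0.000511 and 0.00215). The median log2 fold change of the 17 genes was -0.02 in both guide groups. SNHG15 thus had the largest fold change of the 26 non-coding hosts tested in either group.

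Of 44 protein-coding snoRNA hosts, mostly ribosomal proteins and translation factors, 2 rose and 0 fell in sgControl cells and 1 rose and 0 fell in sgEGR1 cells, where 2.12% and 1.81% of all genes rose. NOP56 rose in both (log2 fold changes 0.29 and 0.31, edgeR adjusted p = 0.0278 and 0.0213), and TBRG4 rose in sgControl cells (0.25, edgeR adjusted p = 0.037). The median of the 44 was -0.03 in sgControl and 0.0068 in sgEGR1 cells. NOP56 also encodes a core protein of C/D snoRNPs, the particles in which snoRNAs work. NOP56, NOP58 and DKC1 are in both this list and the next. Among the 14 snoRNP core and assembly genes, all 14 had a positive log2 fold change in sgControl and 13 in sgEGR1 cells, with medians of 0.08 and 0.12, where 48.2% and 49.8% of all genes were positive. In each guide group 2 of the 14 rose, where 2.12% and 1.81% of all genes did. Beside NOP56, these were NOLC1, a nucleolar snoRNP chaperone, in sgControl cells (0.18, edgeR adjusted p = 0.0403) and NOP10, an H/ACA core protein, in sgEGR1 cells (0.35, edgeR adjusted p = 0.0151). Without the library that went against its label, neither NOP56 (0.26, edgeR adjusted p = 0.0967) nor NOP10 (0.33, edgeR adjusted p = 0.0636) was called in sgEGR1 cells, while both were called in the average over both guides (edgeR adjusted p = 0.0039 and 0.0201).

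**Figure D4:**
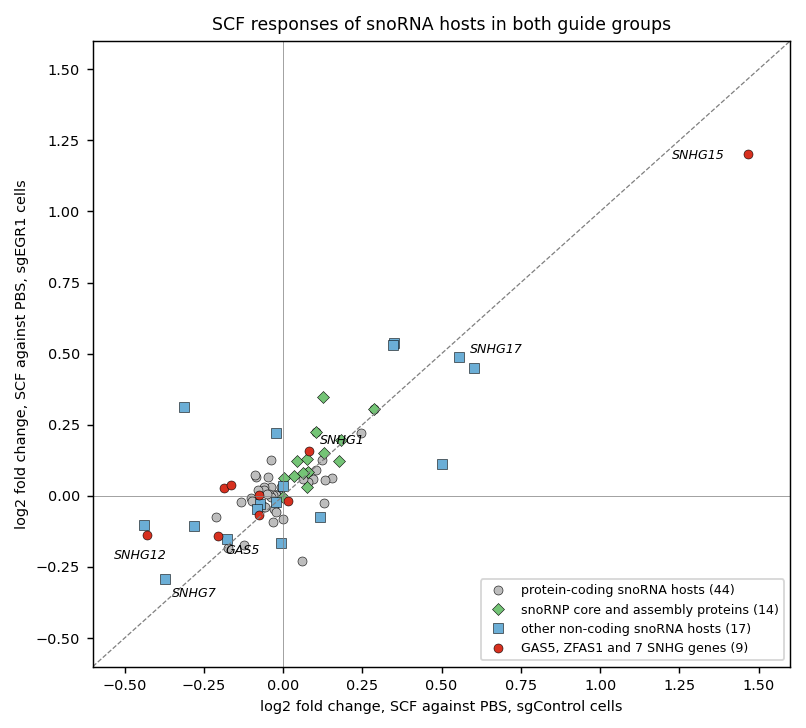
Log2 fold change after SCF in sgControl cells (horizontal axis) against that in sgEGR1 cells (vertical axis) for the 9 hosts (red), 17 other non-coding hosts (blue), 44 protein-coding hosts (grey) and 14 snoRNP genes (green), with a dashed line of equality. SNHG15 stands alone at 1.46 and 1.20, and the protein-coding hosts lie between -0.23 and 0.31 on both axes.

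Genes that start next to a host on the opposite strand, within 1000 bases, were not called after SCF. SLC3A2, a heavy chain of amino acid transporters whose start is 51 bases from that of SNHG1, had log2 fold changes of 0.36 in sgControl and 0.38 in sgEGR1 cells (edgeR adjusted p = 0.24 and 0.194). ZNFX1, 248 bases from ZFAS1, had -0.16 and -0.21 (edgeR adjusted p = 0.138 and 0.058). ZBTB37, 800 bases from GAS5, had 0.04 and -0.13. The values of SNHG1 and SLC3A2 were positive, and those of ZFAS1 and ZNFX1 negative, in both guide groups, without passing the test.

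For the glucocorticoid receptor, which GAS5 RNA can bind, the RNA of 7 genes was tested, those of the receptor and its textbook targets. These RNA levels do not measure the activity of the receptor. Over all genes, 2.12% were called higher and 0.775% lower in sgControl cells, 1.81% and 0.788% in sgEGR1 cells, and 14.3% and 15% had an unadjusted p under 0.05. NR3C1, the receptor gene, fell after SCF in sgControl (log2 fold change -0.22, edgeR adjusted p = 0.0241) and in sgEGR1 cells (-0.20, edgeR adjusted p = 0.047), and the other 6 were not called in either. Of 14 nonsense-mediated decay factors, 1 rose and 0 fell in sgControl cells and 0 rose and 1 fell in sgEGR1 cells. SMG8, a regulator of the decay kinase SMG1, rose in sgControl cells (0.33, edgeR adjusted p = 0.0241). UPF1, the central helicase of the pathway, fell in sgEGR1 cells (-0.24, edgeR adjusted p = 0.0235) and had a value of -0.20 in sgControl cells (edgeR adjusted p = 0.0536). Of 15 regulators of mTORC1 and TOP mRNAs, 0 were called in sgControl cells, where 2 had an unadjusted p under 0.05, and 1 fell in sgEGR1 cells. This was TSC1, an inhibitor of mTORC1 (-0.27, edgeR adjusted p = 0.0316). Among 12 erythroid markers 0 were called in sgControl cells, where 3 had an unadjusted p under 0.05, and SLC4A1, the red cell anion exchanger, fell in sgEGR1 cells (-0.31, edgeR adjusted p = 0.0471). This list too lay mostly on 1 side of 0. Of the 12 markers, 3 had a positive log2 fold change in sgControl and 0 in sgEGR1 cells, with medians of -0.08 and -0.15. Over all genes 48.2% and 49.8% were positive. Of the 2 markers of other blood cells tested, 0 were called in either guide group and 0 had an unadjusted p under 0.05. Without the library that went against its label, none of NR3C1 (-0.19), UPF1 (-0.25), TSC1 (-0.25) and SLC4A1 (-0.23) was called in sgEGR1 cells, with edgeR adjusted p of 0.171, 0.0804, 0.132 and 0.17.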

How the data were processed

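The authors sequenced RNA of 12 HUDEP-2 libraries, aligned reads to hg38 with HISAT2 and deposited a gene table of estimated counts made with StringTie. Annotation release, strand setting and treatment of multi-mapping reads were not given in the sources used here, and the labels and the study's methods name different library kits. All values were whole, and 0 columns were left without a sample. The second construct's column code was read as sgEGR1, the only other construct in the labels. The members and gene lists were chosen with earlier results of these data known.

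Counts were tested in R 4.3.3 with edgeR 4.0.16 (quasi-likelihood, 1 coefficient per group over all 12 libraries, filterByExpr, TMM scaling, Benjamini-Hochberg over 15492 genes, called at an adjusted p under 0.05), with 20 alternatives per result including DESeq2 1.42.0. CPM are scaled by TMM. Other genes were named where a list gene was called in an SCF comparison, where an opposite-strand start lay within 1000 bases, or where the log2 level (prior count 2) followed GAS5 or the members' mean most closely. Library totals were 23.5 to 32.04 megacounts. Coordinates and exons are from GENCODE v44, and promoters from RefSeq. On simulated counts for SCF in sgControl cells, edgeR recovered 61% of 200 genes changed 2-fold, with 5 false calls of 15174 genes tested. Recovery of smaller changes was not simulated. Replicate libraries differed beyond sampling noise (chi-square per degree of freedom 4.36 to 20.5). The study's methods call the 3 libraries per condition biological replicates, isolated individually; separate infections are not stated, so p-values measure the spread between these libraries.

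The labels give replicate numbers but no shared origin for same-numbered libraries, and the main test did not pair them. In the guide comparisons, residuals of same-numbered libraries correlated at 0.23, 0.10 and 0.12 after PBS and 0.27, 0.10 and 0.13 after SCF. Some genes that overlap the hosts and some markers are not reported here by name.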

Additional observations from a re-analysis of the deposited data

How the results depend on the processing

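SNHG15 kept its direction and its call after SCF under all 20 alternatives in both guide groups and in the average. The number of hosts called in sgControl cells was 1 (2.89% of all genes) and became 2 with the replicate block (7.64%) or a term for replicate 1 (8.32%; SNHG12 added in both) and 3 in replicates 2 and 3 alone (3.71%; SNHG12 and SNHG6 added), and it ranged from 1 to 2 when single libraries were left out; the 2 came without sgControl PBS replicate 1 (2.27%; SNHG6 added). In sgEGR1 cells it was 1 (2.59%) and became 2 with the replicate block (7.97%; SNHG1 added, edgeR adjusted p = 0.0433). In the average response it was 1 (9.03%) and became 2 with DESeq2 (11.6%; GAS5 added), 4 with the replicate block (18.1%) or a term for replicate 1 (18.5%; GAS5, SNHG12 and SNHG1 added in both), and 2 in replicates 2 and 3 alone (11.3%; GAS5 added); it ranged from 1 to 2 when single libraries were left out, with GAS5 added without sgControl PBS replicate 1 (8.21%; adjusted p = 0.0211) or without sgControl SCF replicate 3 (7.09%; adjusted p = 0.0415). In the guide comparisons and the interaction 0 hosts were called under every alternative, the replicate block included. The cause of these changes was not tested.

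In the SCF comparisons the replicate numbers likewise share no stated origin, and residuals of same-numbered libraries correlated at 0.27, 0.0077 and 0.11 in sgControl and at 0.23, 0.075 and 0.062 in sgEGR1 cells.

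Values near 0 that were never called changed sign. SNHG16 was -0.041 in replicates 2 and 3 alone in sgControl cells and 0.00029 without scaling factors in sgEGR1 cells; in the average it was 0.023 without scaling factors, 0.010 without the filter and 0.0019 with the replicate block or a term for replicate 1. SNHG5 in sgEGR1 cells was -0.00023 with median-of-ratios factors and -0.00015 in DESeq2. When single libraries were left out, the log2 fold change in sgControl cells ranged from -0.014 to 0.16 for SNHG1, -0.19 to 0.0010 for SNHG5, -0.035 to 0.046 for SNHG16 and -0.19 to 0.0064 for ZFAS1. In sgEGR1 cells it ranged from -0.024 to 0.050 for SNHG5, -0.0012 to 0.061 for SNHG6, -0.24 to 0.048 for SNHG12 and -0.097 to 0.047 for SNHG16. In the average it ranged from -0.093 to 0.0030 for SNHG5 and -0.039 to 0.033 for SNHG16. Depth limited SNORA9, with 3 to 19 counts per library, more than the hosts, of which GAS5 had 1947 to 2814.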
